A study of Mus musculus with 10 samples.

Results

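The genes described here are 7 adrenergic receptor genes, Adra1a, Adra1b, Adra1d, Adra2a, Adra2b, Adra2c and Adrb1, taken by gene name from the 40481 Ensembl genes of a count table of mouse dorsal root ganglia, the tissue that holds the cell bodies of the sensory neurons of the trunk and limbs. All 7 names were found, each under a single Ensembl ID. Adra2b was picked because it stood among the largest rises in this same comparison, and the other 6 were added as its relatives. Its difference between the groups is therefore given as a description and is not evidence gathered independently of that choice. Adrenergic receptor genes other than these 7 are not analysed here.

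The study sequenced total RNA of ganglia from C57BL/6 mice, 5 libraries after oxaliplatin at 10 mg/kg and 5 after vehicle, with a treatment of 8 weeks. Oxaliplatin is a platinum compound given against bowel cancer, and painful damage to sensory nerves is a common side effect. The comparison asks how the drug alters gene expression in the ganglion. No genotype other than the strain, no age and no dosing schedule is given in the sources used here, nor is it said whether each library came from a separate animal, and the p-values therefore rest on library-to-library spread that may in part be technical.

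Adrenergic receptors are G protein-coupled receptors for noradrenaline and adrenaline. The alpha-2 subtypes (Adra2a, Adra2b, Adra2c) couple to inhibitory G proteins, lower cyclic AMP and restrain transmitter release, and they are the targets of the pain-relieving and sedating drugs clonidine and dexmedetomidine. The alpha-1 subtypes (Adra1a, Adra1b, Adra1d) couple to phospholipase C and contract vascular smooth muscle, and the beta-1 receptor (Adrb1) raises cyclic AMP. In sensory ganglia the family is known mainly from work on nerve injury, after which sympathetic fibres can come to excite sensory neurons.

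Library totals ran from 52963470 to 60984426 counts. The markers of the labelled tissue were present at high levels, with Tubb3, a neuronal tubulin, at 8167 ± 627 CPM after oxaliplatin and 9412 ± 729 CPM after vehicle (CPM, read counts relative to the TMM-scaled library total; mean and SD of 5 libraries), and Calca, which encodes the peptide CGRP, at 3844 ± 541 and 4587 ± 553 CPM. The defining transcripts of sympathetic neurons were low: Phox2a had 0 to 2 counts per library, Hand2 0 to 9, Slc6a2, the noradrenaline transporter, 0 to 24, and Dbh, which makes noradrenaline, 0 to 54. In 1 library adipocyte transcripts were high: the 8 adipocyte markers summed to 695 CPM in oxaliplatin replicate 1, against 17.7 to 49.2 CPM in the other oxaliplatin libraries and 9.66 to 36.2 CPM after vehicle.

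Adra2b (ENSMUSG00000058620) encodes the alpha-2B receptor, known for constricting blood vessels. The stretch around its start site, from 250 bases before to 50 bases after, is shown because this is the gene whose level differed. It is taken from RefSeq (GRCm38.p6, chr2:127362929-127363228, plus strand), and the capitals mark GC boxes, the motif GGGCGG or its reverse complement, to which SP-family factors bind.

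Adra2b: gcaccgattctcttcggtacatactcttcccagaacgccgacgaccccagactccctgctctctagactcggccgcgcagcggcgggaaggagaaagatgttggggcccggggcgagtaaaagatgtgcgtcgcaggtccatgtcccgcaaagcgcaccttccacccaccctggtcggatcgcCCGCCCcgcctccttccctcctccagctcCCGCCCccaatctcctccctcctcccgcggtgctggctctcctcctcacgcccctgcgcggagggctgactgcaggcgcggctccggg

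The window holds 2 GC boxes and 29 CpG dinucleotides, more than 87.1% of the 32851 promoter windows of the same length. At least 1 GC box, on either strand, was found in 35.7% of those windows. The glucocorticoid receptor motif AGAACA, found in 19.0% of windows on either strand, does not occur in it, and neither does the cyclic AMP response element TGACGTCA (1.79% of windows). These matches describe letters only. The corresponding window of Adra2a had 28 CpG dinucleotides and 1 GC box, and that of Adra2c 7 and 0. Adra1b had a window with 28 and 2, as many GC boxes as Adra2b, and another with 3 and 0. The window of Adrb1 had 28 and 1.

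Adra2b was higher in every oxaliplatin library than in any vehicle library. After vehicle it stood at 3.29, 3.71, 3.68, 1.45 and 1.72 CPM in replicates 1 to 5 (182, 198, 206, 85 and 92 counts). After oxaliplatin it stood at 8.29, 5.49, 6.02, 13.2 and 8.96 CPM in replicates 1 to 5 (457, 321, 352, 814 and 537 counts). The groups did not overlap, but the gap between them was narrow beside the spread within them: the lowest oxaliplatin library was 1.48 times the highest vehicle library, while the highest vehicle library was 2.56 times the lowest and the highest oxaliplatin library 2.40 times the lowest. Oxaliplatin replicate 4 stood above its group and vehicle replicates 4 and 5 below theirs.

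**Figure D1:**
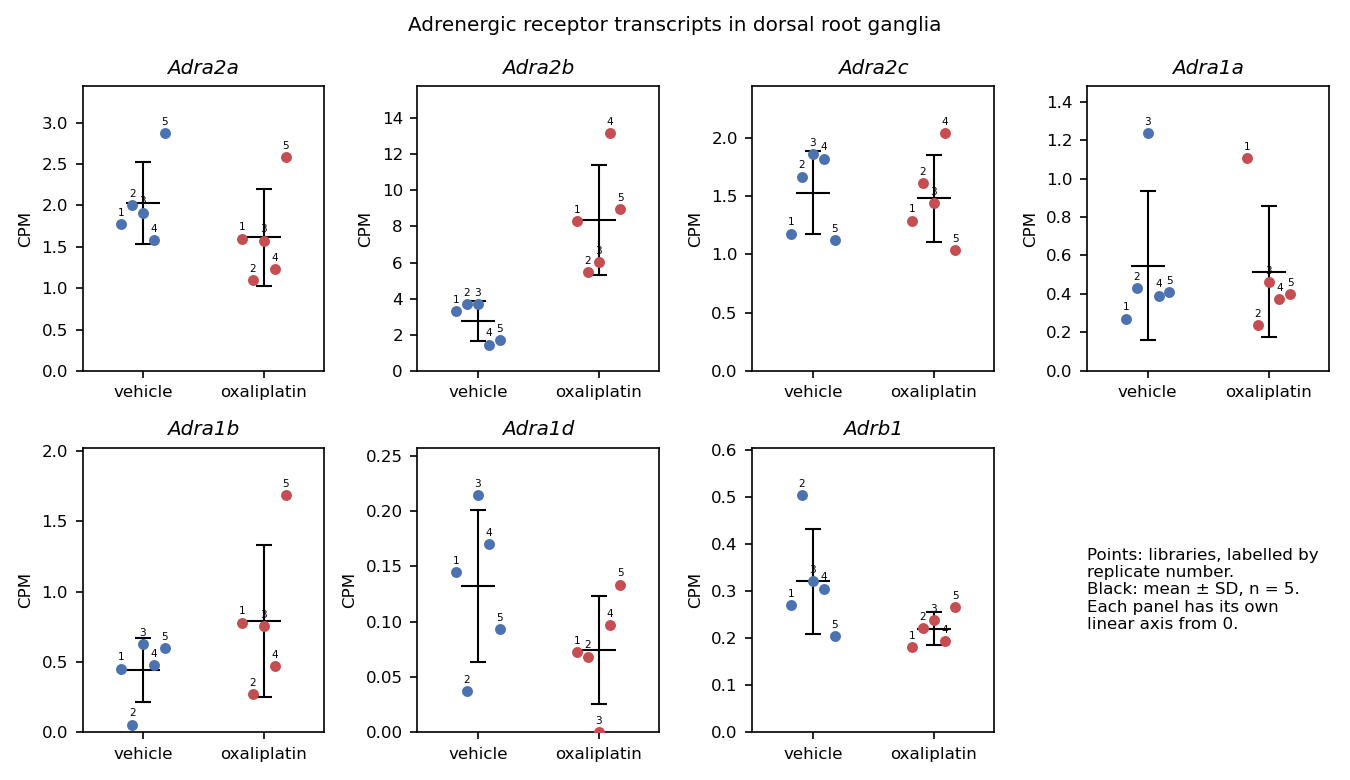
CPM of each of the 7 receptor genes (vertical axes, linear from 0, a separate scale per panel) in the 5 vehicle and 5 oxaliplatin libraries; points are libraries labelled by replicate number and black marks are mean ± SD. Adra2b, from 1.45 to 3.71 CPM after vehicle and from 5.49 to 13.2 CPM after oxaliplatin, is the panel in which the groups do not overlap.

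The group means of Adra2b were 8.38 ± 3.04 CPM after oxaliplatin and 2.77 ± 1.1 CPM after vehicle (SD, n = 5 each), a fitted log2 fold change of 1.60 ± 0.32 (SE), or 3.03-fold. Only 0.359% of the 18401 tested genes had a larger log2 fold change. With Benjamini-Hochberg adjustment over all tested genes it was called at a threshold of 0.05 (edgeR quasi-likelihood test, adjusted p = 0.0293), and this is the contrast through which it was chosen. Of the 6 receptors tested it was the only one called, where 2.04% of all tested genes were called (1.27% as higher). It was also the only one whose groups did not overlap, as was so for 4.02% of tested genes (2.25% with oxaliplatin higher). Because Adra2b was chosen on this contrast, nothing is read from these counts.

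The size of the difference held in each alternative run, and the call did not. The log2 fold change lay between 1.38 and 1.84 over 18 alternatives. The edgeR adjusted p rose above 0.05 when oxaliplatin replicate 1 (0.0599), 4 (0.0527) or 5 (0.0798) or vehicle replicate 1 (0.0622), 4 (0.0520) or 5 (0.0650) was left out, and stayed below it without the other 4 libraries. Without the adipocyte-rich oxaliplatin replicate 1 the log2 fold change was 1.61. The number of genes called moved as well: leaving out oxaliplatin replicates 1 to 5 in turn, 1.18, 3.18, 1.57, 0.607 and 0.633% of tested genes were called, and leaving out vehicle replicates 1 to 5, 1.04, 2.08, 1.8, 0.659 and 1.53%. DESeq2 called 5.07%, limma voom 4.37% and edgeR with the replicate number as a block 3.59%. In edgeR the share was 2.18% with no composition factor, 1.6% with no filter on low counts and 2.58% with a minimum of 1 CPM in 5 libraries. Of these fits by tool or setting, the replicate block (adjusted p = 0.160) and the filter-free fit (0.0719) lost the Adra2b call. The plot of Adra2b under each alternative sets these values side by side.

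**Figure D2:**
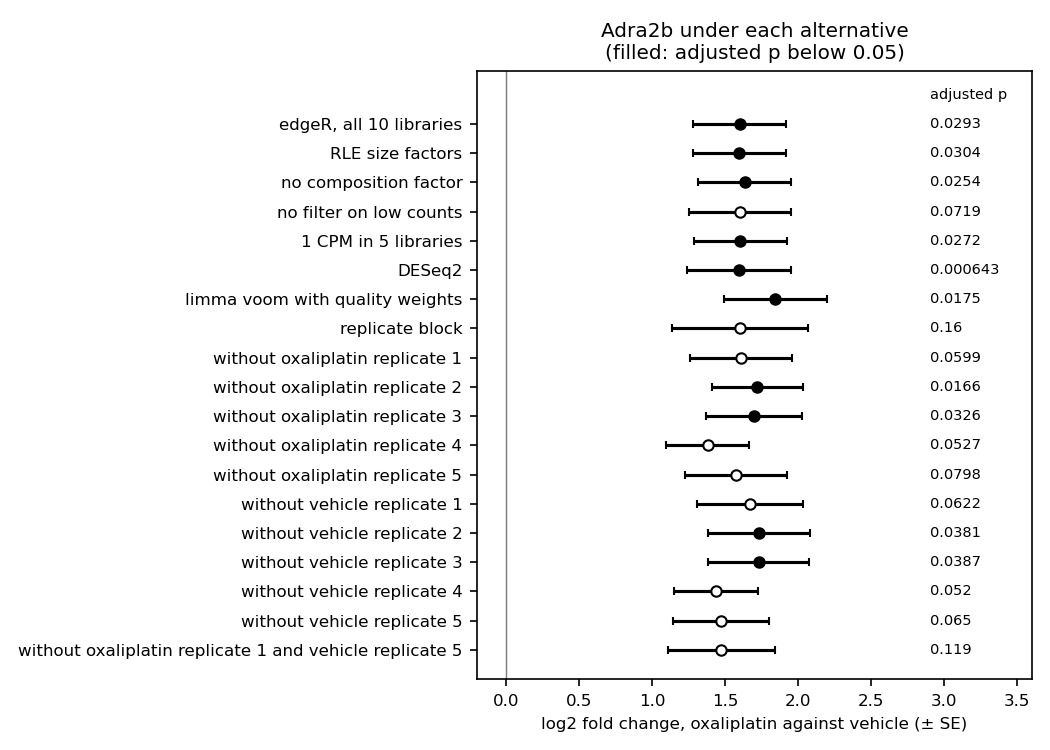
Log2 fold change of Adra2b, oxaliplatin against vehicle (horizontal axis; bars are ± SE), under each normalization, filter, tool and left-out library, with the adjusted p at the right; filled points are below 0.05. Each point lies between 1.38 and 1.84, and the open points include 6 of the 10 fits that leave out 1 library.

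Spread within the groups was wide for Adra2b at its depth. A median library held enough Adra2b reads that counting error alone gives a coefficient of variation of 6.16%, while the observed values were 36.3% after oxaliplatin and 39.8% after vehicle. The within-group SD of its log2 CPM, 0.576, exceeded that of 97.1% of the 1908 tested genes within 0.5 log2 units of its mean level, whose median SD was 0.233. Adra2c, by contrast, had a within-group SD of 0.350, close to the median of 0.373 for genes at its own level.

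The other alpha-2 receptors did not share the pattern of Adra2b. Adra2a (ENSMUSG00000033717), the subtype through which clonidine chiefly lowers transmitter release, stood at 1.77, 2.003, 1.91, 1.58 and 2.87 CPM after vehicle and at 1.60, 1.09, 1.57, 1.23 and 2.59 CPM after oxaliplatin in replicates 1 to 5. The groups overlapped, and replicate 5 was the highest library of each. Its log2 fold change was -0.33 ± 0.25 (edgeR adjusted p = 0.560).

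Adra2c (ENSMUSG00000045318), an autoreceptor of sympathetic nerve endings that is also made by sensory neurons, stood at 1.18, 1.67, 1.86, 1.82 and 1.12 CPM after vehicle and at 1.29, 1.61, 1.44, 2.04 and 1.04 CPM after oxaliplatin in replicates 1 to 5. The ranges nearly coincided, with replicate 5 the lowest library of each group. For this gene edgeR gave a log2 fold change of -0.05 ± 0.23 (adjusted p = 0.955), a sign that turned when oxaliplatin replicate 1 or 5 or vehicle replicate 3 or 4 was left out (0.00 to 0.06). Once the group means were removed, Adra2a and Adra2c ran opposite to each other over the 10 libraries (Pearson r = -0.752 in log2 CPM), the largest r in size among the 15 pairs of tested receptors. Libraries were shared by both genes and the r is a description without a test.

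Of the reads that fell on the 3 alpha-2 genes, Adra2b took 52.8, 50.3, 49.4, 29.8 and 30.1% in vehicle replicates 1 to 5. After oxaliplatin it took 74.2, 67.0, 66.7, 80.1 and 71.2%. The exact binomial 95% interval of the highest vehicle share reached 58.1% and that of the lowest oxaliplatin share began at 62.5%; these intervals cover counting error only. The group means were 42.5 ± 11.5% and 71.8 ± 5.58% (SD, n = 5 each). A share of reads does not allow for transcript length and is set by the same Adra2b difference.

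**Figure D3:**
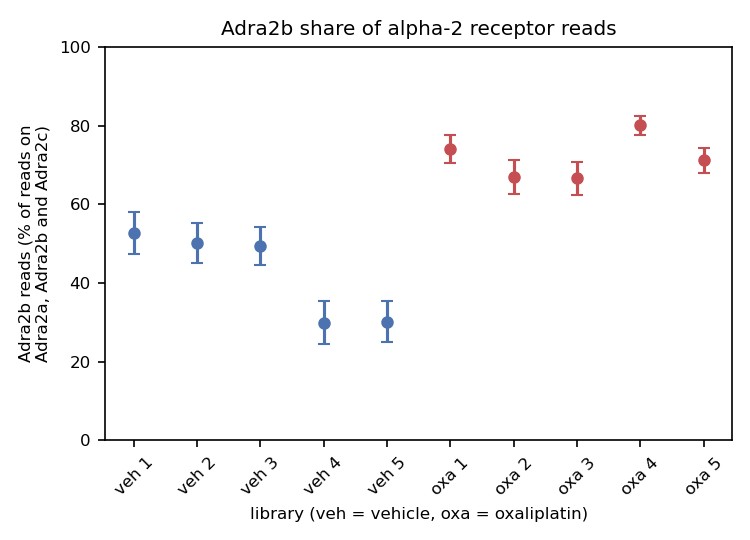
Adra2b reads as a percent of the reads on Adra2a, Adra2b and Adra2c (vertical axis, 0 to 100%) in each library (horizontal axis); bars are exact binomial 95% intervals for counting error. The vehicle libraries lie between 29.8 and 52.8%, with replicates 4 and 5 lowest, and the oxaliplatin libraries between 66.7 and 80.1%.

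Per kilobase of exon, with lengths from GENCODE M21, Adra2b had the highest group mean of the family in both groups. Its mean after vehicle was 0.690 ± 0.274 CPM per kilobase, followed by Adra2c (0.444 ± 0.103) and Adra2a (0.420 ± 0.103), and the ranges of these 3 neighbours overlapped. Adra2b was not the highest in every vehicle library: in replicate 4 it stood at 0.360 CPM per kilobase and Adra2c at 0.528, and in replicate 5 at 0.427 and Adra2a at 0.594. Below Adra2a came a gap without overlap, then Adra1b (0.131 ± 0.0674), Adrb1 (0.0952 ± 0.0331), Adra1d (0.0695 ± 0.0362) and Adra1a (0.0627 ± 0.0446), each overlapping the next.

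After oxaliplatin the first place no longer overlapped the second. Adra2b stood at 2.09 ± 0.758 CPM per kilobase, with its lowest library at 1.37, and the highest Adra2c library at 0.591. The order from the first to the fifth place was that of the vehicle group. Adra1b (0.234 ± 0.160) overlapped Adra2a (0.334 ± 0.121) in this group, and Adrb1, Adra1a and Adra1d overlapped one another at the bottom. Lengths cover all annotated exons, so they can understate a gene of which only a short transcript is made.

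The alpha-1 receptors, which constrict vessels through phospholipase C, were low and uneven. Adra1b (ENSMUSG00000050541) had 25, 3, 35, 28 and 32 counts in vehicle replicates 1 to 5 and 43, 16, 44, 29 and 101 counts in oxaliplatin replicates 1 to 5. In CPM 3 of the 5 oxaliplatin libraries lay above every vehicle library, oxaliplatin replicate 5 stood highest and vehicle replicate 2 lowest, and the groups overlapped. Its log2 fold change of 0.84 ± 0.52 did not pass the threshold (edgeR adjusted p = 0.465), and only 2.505% of tested genes had a larger one. Its within-group SD, 1.07 in log2 CPM, exceeded that of 96.3% of genes at its level, and the log2 fold change was 0.36 to 1.06 when libraries were left out in turn.

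Adra1a (ENSMUSG00000045875) had 15, 23, 69, 23 and 22 counts after vehicle and 61, 14, 27, 23 and 24 counts after oxaliplatin in replicates 1 to 5. Vehicle replicate 3 and oxaliplatin replicate 1 stood apart from otherwise like libraries. Its fitted difference was -0.09 ± 0.47 on the log2 scale (edgeR adjusted p = 0.955), and it was 0.46 without vehicle replicate 3 and -0.57 without oxaliplatin replicate 1. Oxaliplatin replicate 1 was also the adipocyte-rich library (695 CPM over the 8 markers), while vehicle replicate 3 was not (32.8 CPM), and the part of other tissue in these Adra1a values was not tested.

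Adra1d (ENSMUSG00000027335) did not pass the filter on low counts, with 8, 2, 12, 10 and 5 counts after vehicle and 4, 4, 0, 6 and 8 counts after oxaliplatin in replicates 1 to 5. The 0 in oxaliplatin replicate 3 allows a level of up to 0.0513 CPM (3 counts). Without the filter edgeR gave a log2 fold change of -0.81 ± 0.84 (adjusted p = 0.695), and a difference was not detectable at this depth. An antisense gene, Gm14285, shares 147 exon bases with Adra1d on the opposite strand in GENCODE M21 and had 0 to 7 counts per library, so without a statement on strand their reads cannot be told apart. No such overlap with an annotated gene was found for the other 6 receptors.

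Adrb1 (ENSMUSG00000035283), the beta-1 receptor best known from the heart, had 15, 27, 18, 18 and 11 counts after vehicle and 10, 13, 14, 12 and 16 counts after oxaliplatin in replicates 1 to 5. The groups overlapped, with vehicle replicate 2 highest. Its fitted difference was -0.54 ± 0.38 on the log2 scale (edgeR adjusted p = 0.536). Summed over the 6 receptors other than Adra2b, the family stood at 4.70 ± 0.958 CPM after oxaliplatin and 5.00 ± 0.781 CPM after vehicle (SD, n = 5 each), ranges of 3.50 to 6.11 and 4.09 to 6.17 CPM that overlapped.

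Around the receptors, edgeR called 1 gene higher and 1 lower in the lists of genes that make, sense or relay noradrenaline. Calls were also few among all tested genes (2.04%), so nothing is read from the small number of calls in these lists. The lists below are given by their counts in the fit over all genes, of which 1.27% were called as higher and 0.772% as lower, with a median log2 fold change of 0.01, and 16.3% had an unadjusted p under 0.05. The plot of receptors and surrounding genes shows each member.

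**Figure D4:**
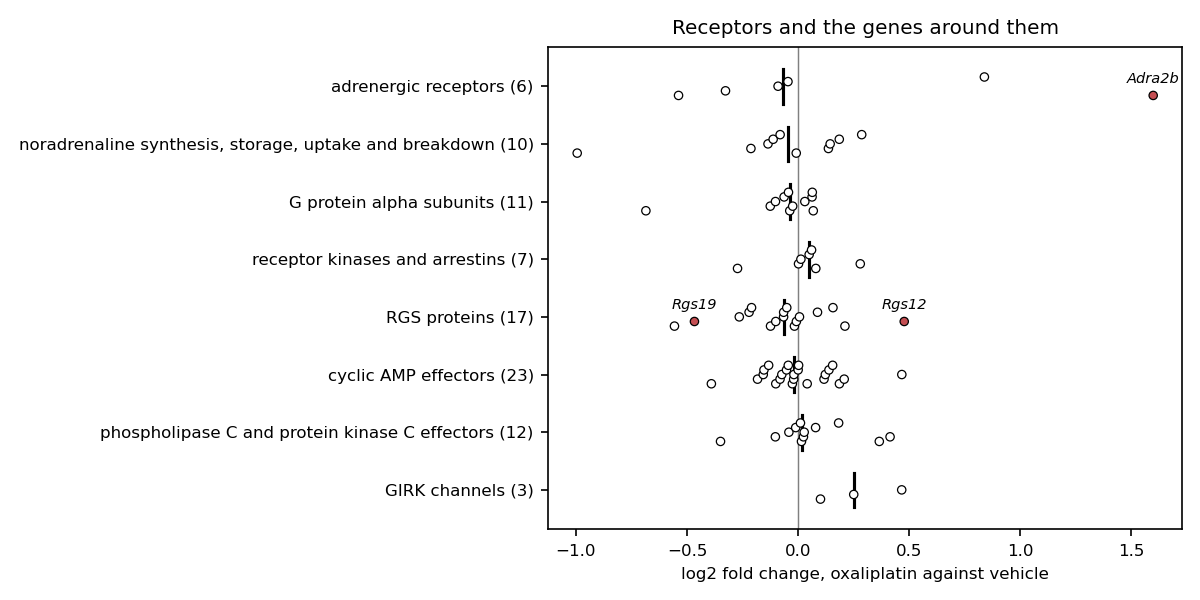
Log2 fold change, oxaliplatin against vehicle (horizontal axis), of each tested member of the receptor family and of 7 lists of surrounding genes (rows, number tested in brackets); black bars are list medians and red points have an edgeR adjusted p below 0.05. Adra2b at 1.60 lies to the right, and the other red points are Rgs12 at 0.48 and Rgs19 at -0.47.

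Enzymes and carriers of noradrenaline had 0 of 10 tested members called by edgeR, DESeq2 or limma voom, and 0 with an unadjusted edgeR p under 0.05, at a median of -0.04. Th, the rate-limiting enzyme of catecholamine synthesis, which a class of touch-sensing C-fibre neurons also makes, was at 286 ± 106 CPM after oxaliplatin and 259 ± 77.0 CPM after vehicle (log2 fold change 0.14 ± 0.32). Among the members of smallest p were the vesicle carrier Slc18a1 (0.29 ± 0.14, edgeR adjusted p = 0.325) and the amine-breaking enzyme Maob (0.19 ± 0.12, 0.489). Dbh had 0.173 ± 0.109 and 0.345 ± 0.387 CPM, and Pnmt and Slc6a2 were too low to be tested.

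G protein alpha subunits likewise had 0 of 11 called by any of the 3 tools, and 0 with an unadjusted edgeR p under 0.05, at a median of -0.04. Gnai2, an inhibitory subunit of the class that alpha-2 receptors use, was at -0.13 ± 0.07 (edgeR adjusted p = 0.366). Gna14 (-0.10 ± 0.06) and Gna11 (0.06 ± 0.05), both of the class that alpha-1 receptors use, were no closer to the threshold (adjusted p = 0.425 and 0.614). The summed level of the subunits was 1930 to 2003 CPM after oxaliplatin and 1755 to 2113 CPM after vehicle.

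Among RGS proteins, which shorten G protein signals, 1 of 17 rose and 1 fell, and 5 had an unadjusted edgeR p under 0.05. Rgs12 rose from 10.3 ± 0.512 to 14.4 ± 1.40 CPM (SD, n = 5 each), a log2 fold change of 0.48 ± 0.09 (edgeR adjusted p = 0.0164), without overlap between the groups. It stayed below 0.05 in each of the 10 fits without 1 library. The Rgs12 call was lost without both oxaliplatin replicate 1 and vehicle replicate 5 (edgeR adjusted p = 0.0602). Rgs19, which acts on inhibitory alpha subunits, fell from 31.2 ± 3.77 to 22.6 ± 2.30 CPM, a log2 fold change of -0.47 ± 0.09 (edgeR adjusted p = 0.0193), also without overlap; its adjusted p was 0.0523, 0.0704 and 0.0727 without oxaliplatin replicate 1, 4 or 5. Rgs11 was at 0.21 ± 0.07 (edgeR adjusted p = 0.154), and the list's median was -0.06.

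Receptor kinases and arrestins, which switch off and take in active receptors, had 0 of 7 called by edgeR and 2 with an unadjusted p under 0.05. Arrb1, a beta-arrestin, was at -0.27 ± 0.08 (edgeR adjusted p = 0.0769), and DESeq2 (0.0328) and limma voom (0.0267) called it. In edgeR it also passed with the replicate block (0.0481) and without vehicle replicate 3 (0.0205). Grk6 (0.28 ± 0.12) and Grk2 (0.08 ± 0.10) had edgeR adjusted p values of 0.244 and 0.753.

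Cyclic AMP effectors had 0 of 23 called by edgeR and 4 with an unadjusted p under 0.05, at a median of -0.02. Rapgef3, a cyclic AMP sensor also called Epac1, stood just outside the threshold. It was at 13.3 ± 1.61 CPM after oxaliplatin and 9.60 ± 1.36 CPM after vehicle without overlap (log2 fold change 0.47 ± 0.12, edgeR adjusted p = 0.0505), and it was the member that DESeq2 (0.00893) and limma voom (0.0265) called. In edgeR it also passed with no composition factor (0.0332), no filter (0.0331), a minimum of 1 CPM in 5 libraries (0.0456), the replicate block (0.0127), without vehicle replicate 5 (0.0355) and without both that library and oxaliplatin replicate 1 (0.0327). It missed the threshold in the other 9 fits that leave out 1 library (up to 0.158). The kinase subunits Prkaca (-0.13 ± 0.06) and Prkar1b (0.12 ± 0.05) had edgeR adjusted p values of 0.248 and 0.256.

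Phospholipase C and protein kinase C effectors had 0 of 12 called and GIRK channels, the potassium channels that inhibitory G proteins open, 0 of 3, by any of the 3 tools and with 0 unadjusted edgeR p values under 0.05 in either list. Itpr2, an intracellular calcium channel, was at 0.41 ± 0.21 and Plcb4, a phospholipase C, at 0.18 ± 0.11 (edgeR adjusted p = 0.347 and 0.446). The GIRK subunit Kcnj3 was at 13.0 ± 1.24 and 12.1 ± 1.71 CPM after oxaliplatin and vehicle (0.10 ± 0.11). Kcnj6 (0.47 ± 0.42) and Kcnj9 (0.25 ± 0.28) lay on the same side with wide errors.

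Markers of vessel wall cells, in which Adra2b is known to act, were compared because they could move with it. In bulk RNA, more cells of a type and more RNA per cell cannot be told apart. Of 9 pericyte markers 2 rose and 0 fell (median log2 fold change 0.29; limma voom called 3): Kcnj8, a potassium channel pore, from 2.33 ± 0.611 to 5.46 ± 1.40 CPM (1.23 ± 0.21, edgeR adjusted p = 0.0101), and its partner Abcc9 from 1.55 ± 0.355 to 3.07 ± 0.663 CPM (0.98 ± 0.21, 0.0248). Kcnj8 stayed below 0.05 in each of the 10 fits without 1 library, and Abcc9 lost its call without oxaliplatin replicate 1, 3 or 4 or vehicle replicate 4 (adjusted p up to 0.0784). The 2 markers of highest CPM, with no allowance for length, were Rgs5 (0.16 ± 0.13) and Vtn (0.61 ± 0.41), and neither was called. The 9 markers summed to 165 to 235 CPM after oxaliplatin and 139 to 176 CPM after vehicle, overlapping ranges, and 3 had an unadjusted edgeR p under 0.05.

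Vascular smooth muscle markers had 0 of 8 called by edgeR, with 7 at an unadjusted p under 0.05, a median of 0.85 and 7 above 0; DESeq2 called 2 and limma voom 1. Tagln, a contractile protein, was at 48.6 ± 11.9 and 28.7 ± 6.31 CPM after oxaliplatin and vehicle (0.76 ± 0.19, edgeR adjusted p = 0.0785), and Acta2, smooth muscle actin, at 46.5 ± 20.9 and 22.2 ± 8.78 CPM (1.06 ± 0.40, 0.238). The 8 markers summed to 111 to 222 CPM after oxaliplatin and 64.5 to 123 CPM after vehicle, and none of them was at 0 in any library. Endothelial markers had 2 of 8 higher and 0 lower (median 0.11): Pecam1 (0.98 ± 0.18, edgeR adjusted p = 0.0164), which was not called without oxaliplatin replicate 4 (0.0504), and Cdh5 (0.69 ± 0.17, 0.0480), which was called in 3 of the 10 fits that leave out a library (up to 0.147). They summed to 76.8 to 85.9 CPM after oxaliplatin and 54.7 to 78.8 CPM after vehicle, and 3 had an unadjusted edgeR p under 0.05. The part of vessel wall cells in the Adra2b difference was not tested.

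Of the other cell classes, edgeR called 0 to 2 markers each, and the other tools called more in some. Sensory neuron markers had 0 of 9 higher and 1 lower, Nefh, the heavy neurofilament (-0.63 ± 0.13, edgeR adjusted p = 0.0400), called in 3 of the 10 fits without a library. Satellite glia had Glul higher (0.38 ± 0.08, 0.0223) and Fabp7 lower (-0.98 ± 0.18, 0.0298), called in 6 and 3 of those fits; DESeq2 and limma voom each called 3 of the 6, Kcnj10 being the third. Fibroblasts had 1 of 7 higher, Pdgfra (0.62 ± 0.14, 0.0266, called in 3), and macrophages 1 of 8 lower, Cx3cr1 (-1.73 ± 0.32, 0.0145, called in 8). In edgeR 4 fibroblast, 4 macrophage, 3 satellite glia and 3 sensory neuron markers had an unadjusted p under 0.05, against 16.3% of all tested genes. The sensory neuron markers among them were all lower: Nefh, Tubb3 (-0.20 ± 0.06, edgeR adjusted p = 0.113) and Calca (-0.26 ± 0.10, 0.213). DESeq2 called 4 fibroblast and 4 macrophage markers, and limma voom 3 and 2. Schwann cell, adipocyte and sympathetic markers had 0 of 7, 0 of 6 and 0 of 5 called by edgeR (2, 2 and 1 at an unadjusted p under 0.05), DESeq2 called the Schwann cell marker Ncmap and the adipocyte marker Lep, which edgeR's filter had left untested, and limma voom called 0.

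To find genes that varied like Adra2b without using the difference between the groups, the group mean was removed from each gene's log2 CPM and the rest compared over the 10 libraries. Among 12273 genes with a mean of at least 2 CPM, predicted and clone-named genes left out, the 8 of highest Pearson r, 0.927 to 0.948, were Prpf39, a splicing factor, Tmprss7, a membrane protease, Chrna10, a nicotinic receptor subunit, Mgat4a, a sugar transferase, Lypd6, which modulates nicotinic receptors, Ece2, a peptidase, Samsn1, an adaptor protein, and Vsig10l. For comparison, 1 in 100 genes had an r of 0.788 or more. EdgeR called 0 of the 8 between the groups (adjusted p 0.0969 to 0.837). It called 2.04% of all tested genes, so nothing is read from a 0 among 8. Their log2 fold changes ran from -0.09 to 0.57 against 1.60 for Adra2b, which was chosen for its large difference. These r values describe the same 10 libraries, with shared depth and tissue makeup, and carry no test.

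The gene of this set with the largest log2 fold change, Chrna10, shows the pattern. It stood at 4.45, 4.89, 3.52, 1.46 and 1.27 CPM in vehicle replicates 1 to 5 and at 4.77, 3.35, 2.46, 7.56 and 5.04 CPM in oxaliplatin replicates 1 to 5. As with Adra2b, vehicle replicates 4 and 5 were low and oxaliplatin replicate 4 was highest in its group, but the groups overlapped. Of the 8 genes, Vsig10l did not overlap: its lowest oxaliplatin library was at 6.53 CPM and its highest vehicle library at 6.36 CPM. Groups without overlap were found for 4.02% of all tested genes, and nothing is read from this one. The map of deviations from the group means shows the pattern within the groups for the 8 genes. With the means removed, it cannot show overlap between the groups.

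**Figure D5:**
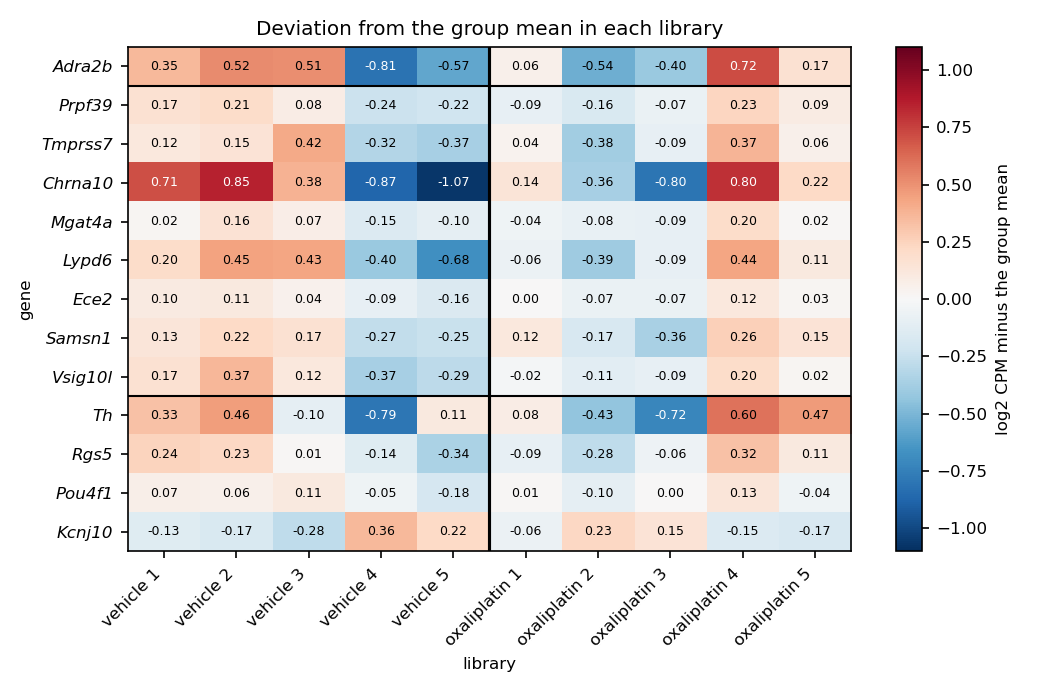
Log2 CPM minus the group mean (colour and printed value) of Adra2b, the 8 genes of highest r with it and 4 cell markers (rows) in the 10 libraries (columns; the black line parts vehicle from oxaliplatin). Adra2b is lowest in vehicle replicate 4 (-0.81) and highest in oxaliplatin replicate 4 (0.72), and Kcnj10 runs the opposite way.

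Among the 73 tested cell type markers, r with Adra2b ran from -0.953 for Kcnj10, a potassium channel of satellite glia and the lowest of all genes compared, to 0.854 for Rgs5, an RGS protein of pericytes. These and the markers that follow were picked after their values were seen. Kcnj10 was highest in vehicle replicates 4 and 5, at 20.6 and 18.8 CPM, against 13.3 to 14.6 CPM in the other vehicle libraries. All 7 Schwann cell markers had a negative r (-0.731 to -0.206), as did 5 of 6 satellite glia markers. The median r over all 12273 genes compared was -0.003, and markers of 1 cell type are not separate observations. Among neuronal genes r was 0.832 for Pou4f1, a transcription factor of sensory neurons, 0.787 for Th and -0.705 for Calca. Smooth muscle markers spread on both sides of 0 (-0.483 to 0.617), as did pericyte markers (-0.368 to 0.854) and endothelial markers (-0.578 to 0.290). With the other tested receptors r was 0.316 for Adrb1, 0.272 for Adra1a, 0.193 for Adra2c, 0.015 for Adra2a and -0.174 for Adra1b. Kcnj10 itself was at -0.41 ± 0.13 between the groups (edgeR adjusted p = 0.121), and DESeq2 and limma voom both called it.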

How the data were processed

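RNA was extracted on magnetic beads from tissue kept in RNAlater, and a SMARTer kit was used for library preparation, per the labels' protocols. The deposited values are raw read counts per Ensembl gene, 1 column per library, per the file headers; STAR 2.5.1a, Partek and DESeq2 are named in the submitters' processing notes with no role, and the sources used here do not give the build, annotation, strand setting or counter. Of 40757 rows, 276 repeats with identical counts were dropped. Replicates differed by more than sampling noise in every within-group pair (chi-square over its degrees of freedom, 12.8 to 53.6). Depth was 52963470 to 60984426 counts per library.

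Groups came from the sample titles. The members and gene lists were chosen with earlier results of these data known. The fit used edgeR 4.0.16 (R 4.3.3) on the whole table: filterByExpr, TMM, robust quasi-likelihood without covariates, Benjamini-Hochberg over 18401 genes, threshold 0.05. SE is the log2 fold change over the root of F; CPM uses TMM-scaled totals, log2 CPM a prior count of 2. Alternatives were RLE or no composition factors, no filter, 1 CPM in 5 libraries, DESeq2 1.42.0, limma 3.58.1 voom with sample weights, a block on replicate number, each library left out and, chosen after seeing the data, 2 libraries left out together. The rule for named genes took all 7 receptors, called members and the 3 of smallest p per pathway list, called members and the 2 of highest CPM per marker list (these last are printed for neurons, pericytes and smooth muscle), and the 8 genes most like Adra2b. Th, Dbh, the low sympathetic markers, Ncmap, Lep, Pou4f1 and Kcnj10 were named outside that rule, after their values were seen. Some genes that the rule took are not reported here. The gene test was checked on simulated counts.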

Additional observations from a re-analysis of the deposited data

Results flagged for a closer look

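Both groups of Adra1a values held a library far from the rest, by the size of its gap to the nearest other library over the group's range. Adra1a stood at 1.11 CPM in oxaliplatin replicate 1, with the next library at 0.462 CPM (gap 0.744 of the range), and at 1.23 CPM in vehicle replicate 3, with the next at 0.430 CPM (0.835), both beyond Dixon's 95% critical value for 5 libraries. Of 18 groups of values examined, chance flags about 1 in 20.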

How the results depend on the processing

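Adra2b kept its direction in all 18 alternatives. Its call was lost without a filter on low counts (log2 fold change 1.60, edgeR adjusted p = 0.0719), with the replicate block (1.60, 0.160), with oxaliplatin replicate 1 and vehicle replicate 5 both left out (1.47, 0.119) and in 6 of 10 fits without 1 library, and it was kept by DESeq2 (0.000643) and limma voom (0.0175). Over all 10 fits without 1 library, the log2 fold change was 1.38 to 1.73 and the adjusted p 0.0166 to 0.0798. The cause was not tested. The labels do not say whether equal replicate numbers pair the libraries. Same-numbered libraries had correlations of -0.092 to 0.471 in their deviations from the group means, highest for replicates 3 (0.471) and 5 (0.359). Differently numbered libraries ran from -0.255 to 0.202. In each group 2 of 5 libraries correlated best with their own number. A pairing was not tested. With the block, 382 genes were called higher and 278 lower, against 234 and 142 without it. The split was 303 and 99 without a composition factor. The counts were 514 and 408 by DESeq2, 439 and 365 by limma voom, 142 and 76 without oxaliplatin replicate 1 and vehicle replicate 5 together, and 79 to 343 and 34 to 251 without 1 library. In the pathway lists, 1 gene was called higher and 1 lower; 2 were higher without a composition factor, without a filter, with 1 CPM in 5 libraries and with DESeq2, limma voom or the replicate block, 2 were lower with the latter 3, 0 were lower without the pair of libraries, and 1 to 2 and 0 to 2 were called without 1 library. Signs turned for Adra1a (0.11 in limma voom, -0.57 to 0.46 without 1 library) and Adra2c (-0.19 to 0.061 without 1 library). Without the pair of libraries, the pathway gene called higher was Rapgef3 (edgeR adjusted p = 0.0327), and Rgs12 was not called (0.0602). Adra1a kept its sign at -0.66 in that fit. Adra1d, Adrb1 and Adra1a rest on 0 to 69 counts per library, which limits what can be detected.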
